A study of Mus musculus with 20 samples.

Results

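The circadian clock genes examined here were Per1, Per2, Per3, Cry1, Cry2, Arntl, Nr1d1, Nr1d2, Dbp and Nfil3, 10 of the 21937 gene symbols in an RNA-seq table of mouse day 10 neurons. They were chosen by name, and all 10 had a row and a mean of at least 10 normalised read counts, the minimum for testing. The comparison set 2 libraries of day 10 neurons given for 6 h 200 µM NMDA, the compound for which the NMDA-type glutamate receptor is named, against 2 libraries of day 10 neurons given DMSO alone for the same 6 h. All 4 came from cells with the strain label 159.2 that were rinsed in a balanced salt solution before and after the treatment. Whether replicate libraries stem from separate cultures is not stated in the labels, and p-values therefore reflect only library-to-library spread, which may be technical. Depth was 20.1 M and 16.8 M reads after NMDA and 20.1 M and 15.0 M in DMSO, where M is 1e+06. No source used here gives the cells' clock phase or a step that set it, and 1 time was sampled.

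The circadian clock is a feedback loop of transcription that runs in most mammalian cells with a period of about a day. The proteins CLOCK and BMAL1 (encoded by Arntl) activate the Per and Cry genes through E-box sequences, and the PER and CRY proteins then repress that activity. In another loop the nuclear receptors REV-ERB alpha and beta, encoded by Nr1d1 and Nr1d2, repress Arntl through ROR elements, and DBP activates while NFIL3 represses genes through D-boxes. In the suprachiasmatic nucleus, the brain's master clock, glutamate released in response to light acts on NMDA receptors and induces Per genes through cAMP response elements.

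Promoter sequences of the 5 genes that passed the test, and of Cry1 beside its relative Cry2, are shown first, because these short sequences are the known routes of control among the clock genes. RefSeq windows (build GRCm38.p6) running from 250 bases before to 50 bases after an annotated start were on hand for 9 of the 10 genes, in 11 windows, since Per1 and Arntl had 2 starts each; Per2 was not matched. Each was searched on both strands for the E-box CACGTG, the core cAMP response element TGACG, the core ROR element AGGTCA and the D-box TTANGNAA. The letters called core here are only a part of the full cAMP response and ROR elements. Among all 32851 windows of that table, 7.15% held the E-box, 20.8% the core cAMP response element, 16.3% the core ROR element and 11.5% the D-box, and among the 11 clock gene windows 2, 5, 4 and 3 held them. In the following sequences, which are the 250 bases before each start (for Arntl a stretch after it) read 5′ to 3′ along the gene, capitals mark matches to these 4 motifs on either strand. No matches overlapped each other.
Per1, first start, chr11:69098699-69098948, plus strand: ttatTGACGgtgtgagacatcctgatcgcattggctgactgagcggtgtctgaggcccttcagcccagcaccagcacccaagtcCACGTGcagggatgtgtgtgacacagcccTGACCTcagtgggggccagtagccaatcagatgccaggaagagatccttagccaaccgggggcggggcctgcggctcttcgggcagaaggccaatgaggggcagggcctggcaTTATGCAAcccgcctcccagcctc
Per1, second start, chr11:69099902-69100151, plus strand: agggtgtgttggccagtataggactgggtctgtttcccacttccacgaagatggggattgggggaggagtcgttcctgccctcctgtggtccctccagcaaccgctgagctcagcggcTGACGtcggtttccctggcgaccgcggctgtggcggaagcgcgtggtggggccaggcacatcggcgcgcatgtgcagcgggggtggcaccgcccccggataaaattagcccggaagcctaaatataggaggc
Cry1, chr10:85185055-85185304, minus strand: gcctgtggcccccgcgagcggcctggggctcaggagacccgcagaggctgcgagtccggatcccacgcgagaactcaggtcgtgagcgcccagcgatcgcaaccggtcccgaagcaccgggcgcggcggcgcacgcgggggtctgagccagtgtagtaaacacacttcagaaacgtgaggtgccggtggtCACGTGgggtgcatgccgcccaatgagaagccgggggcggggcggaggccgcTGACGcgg
Cry2, chr2:92434070-92434319, minus strand: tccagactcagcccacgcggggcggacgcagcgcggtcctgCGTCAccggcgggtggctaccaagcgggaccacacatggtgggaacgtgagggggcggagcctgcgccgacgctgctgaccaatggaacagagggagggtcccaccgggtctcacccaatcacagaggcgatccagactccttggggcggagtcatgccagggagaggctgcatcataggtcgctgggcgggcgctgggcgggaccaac
Nr1d2, chr14:18239107-18239356, minus strand: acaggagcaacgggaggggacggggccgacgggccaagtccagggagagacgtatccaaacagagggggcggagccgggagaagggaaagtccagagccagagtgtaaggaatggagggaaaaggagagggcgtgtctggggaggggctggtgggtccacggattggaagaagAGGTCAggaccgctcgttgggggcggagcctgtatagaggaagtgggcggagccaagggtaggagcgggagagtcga
Nfil3, chr13:52981040-52981289, minus strand: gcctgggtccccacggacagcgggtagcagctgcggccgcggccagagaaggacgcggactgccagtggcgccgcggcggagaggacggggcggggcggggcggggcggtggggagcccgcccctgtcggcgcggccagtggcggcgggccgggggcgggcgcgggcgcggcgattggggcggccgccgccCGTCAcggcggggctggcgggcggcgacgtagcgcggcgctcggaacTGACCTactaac
Arntl, a stretch of 30 bases shortly after its second start, chr7:113207520-113207549, plus strand: acatTTAGGGAAggcagaaagtAGGTCAgg

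The first Per1 window held all 4 motifs: a core cAMP response element 246 bases before the start, an E-box 166 bases, a core ROR element 137 bases and a D-box 24 bases before it. The second Per1 window held a core cAMP response element 132 bases before the start and no E-box. Cry1 had an E-box 60 bases and a core cAMP response element 8 bases before its start, whereas the Cry2 window held a core cAMP response element 209 bases before the start and no match to the other 3 motifs. Nfil3 had a core cAMP response element 59 bases and a core ROR element 12 bases before its start, and Nr1d2 a core ROR element 77 bases before. The Arntl stretch carries a D-box match that begins at position 14 and a core ROR element that begins at position 32, counted from the second start. A match is a description of these letters and says nothing about binding in these cells.

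After NMDA, Per1 was higher and Nfil3, Nr1d2, Cry2 and Arntl were lower, while Per2, Per3, Cry1, Nr1d1 and Dbp did not pass the test. The test was limma-trend on log2(value + 1) of the authors' normalised read counts, fitted over 13888 genes with adjustment by Benjamini-Hochberg and 0.05 as the threshold, and each change is NMDA over DMSO on that log2 scale, where the added 1 shrinks changes of genes with few counts. The 5 of 10 clock genes past the threshold stand beside 41.9% of all tested genes. In the up direction it was 1 of 10 against 20.5% of all tested genes, and in the down direction 4 of 10 against 21.5%. The groups did not overlap for 7 of the 10 clock genes, against 74.5% of all tested genes. Without overlap, 6 of the 10 clock genes were lower after NMDA, against 37.8% of all tested genes, and 1 of the 10 was higher, against 36.6%. The median log2 change of the 10 genes was -0.13, against -0.0055 for all tested genes, and it was -0.059 without DMSO replicate 1 and -0.24 without DMSO replicate 2.

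**Figure D1:**
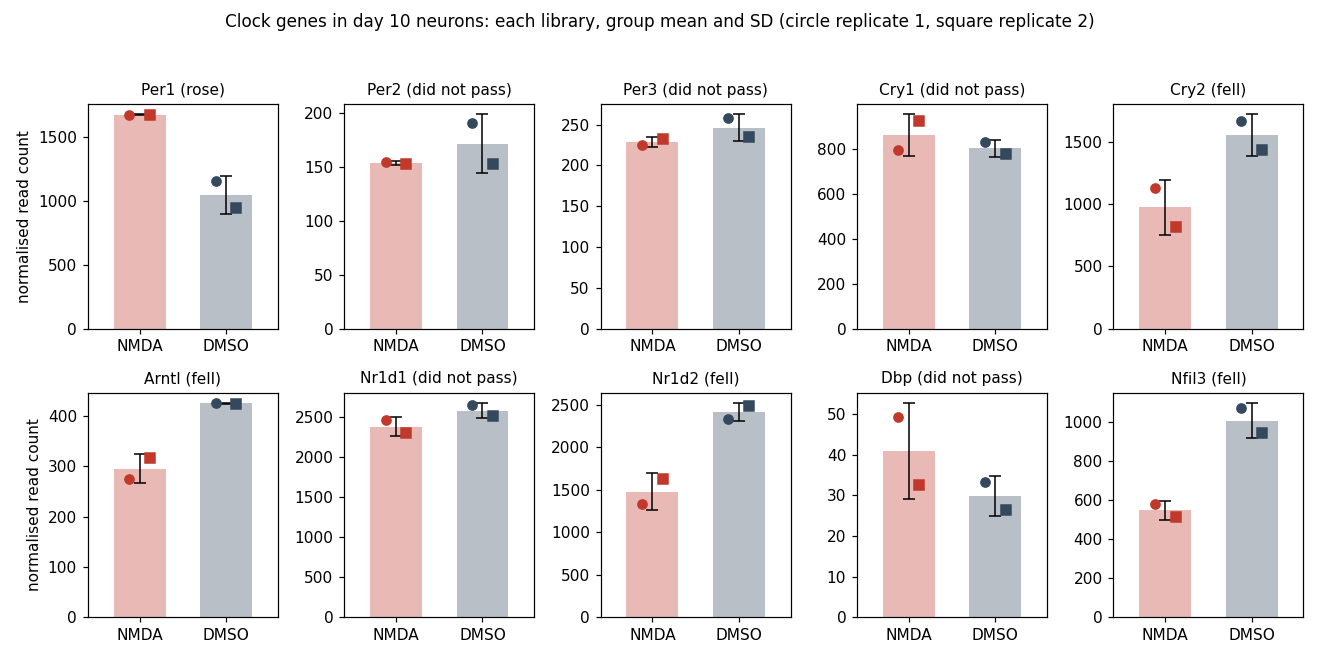
Normalised read count of each clock gene (vertical axis, from 0) in the 2 NMDA libraries and the 2 DMSO libraries of day 10 neurons; points are libraries, bars are group means and lines are SD (n = 2). Per1 stands higher after NMDA at 1676 and 1673, and Nfil3, Nr1d2, Cry2 and Arntl stand lower. The groups did not overlap for these 5 genes, for Per3 and Nr1d1, and for 74.5% of all tested genes.

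In bulk RNA a smaller share of a cell type and less RNA per cell cannot be told apart, and other markers moved in the same libraries. The counts of markers stand beside 20.5% of all tested genes that rose and 21.5% that fell. Pan-neuronal markers were present, with 9 of 18 down and 1 up (median log2 change -0.33), and their summed level was 208340 to 235400 normalised counts after NMDA and 249805 to 260749 in DMSO. Rbfox3, the gene of the neuronal antigen NeuN, had 2079 and 1924 counts after NMDA and 2727 and 2842 in DMSO. All 15 neural progenitor markers rose (median 0.92, sums of 39614 to 51257 after NMDA and 22349 to 25508 in DMSO), as did 14 of 15 fibroblast and mesenchyme markers (median 1.12, sums of 244647 to 328425 after NMDA and 120136 to 131700 in DMSO). The same held for 11 of 14 cell cycle genes (median 0.82, sums of 9753 to 13116 after NMDA and 6498 to 7378 in DMSO) and 6 of 8 tested astrocyte markers of 9 (median 0.70, sums of 25608 to 35015 after NMDA and 18701 to 20050 in DMSO). Oligodendrocyte lineage markers gave 2 rises and 1 fall among 6 tested of 9 (sums of 1346 to 1432 after NMDA and 1190.3 to 1270.3 in DMSO), endothelial markers 1 rise among 4 tested of 7 (437 to 550 after NMDA and 295 to 317 in DMSO), pluripotency markers 1 rise and 1 fall among 2 tested of 7 (469 to 874 after NMDA and 606 to 686 in DMSO) and microglia markers 1 rise among 1 tested of 7 (198 to 211 after NMDA and 123 to 132 in DMSO). These sums cover the tested markers only. The microglia values are therefore those of 1 gene, Tmem119, and the other 6 microglia markers had means under 10. The microglia marker P2ry12 and the endothelial marker Cldn5 were listed at 0 in all 4 libraries. No source used here gives the clock gene levels of each cell type, and the part of cell composition in the results below was not tested.

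The period genes encode the repressors whose accumulation sets the pace of the loop. Per1, which is also known as an early responder to light and neuronal activity, had 1676 and 1673 normalised counts after NMDA and 1155 and 941 in DMSO. Both NMDA libraries lay above both DMSO libraries, and the NMDA libraries were nearly equal. The log2 change was 0.68 ± 0.11 (SE; limma adjusted p = 0.00199), and the call held under each of 13 other settings, with changes between 0.54 and 0.83. Per2, the partner of Per1 in light responses, had 155 and 152.1 counts after NMDA and 190.3 and 152.1 in DMSO. The groups met at 152.1, and the change of -0.15 ± 0.16 did not pass (limma adjusted p = 0.480, 95% interval -0.51 to 0.21); without DMSO replicate 1 it was 0.011. Per3, a weaker member of the family, had 225 and 233 counts after NMDA and 258 and 235 in DMSO. The NMDA libraries lay just below the DMSO libraries, and the change of -0.10 ± 0.13 did not pass (limma adjusted p = 0.535, 95% interval -0.39 to 0.18).

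The cryptochromes encode the stronger repressors of CLOCK and BMAL1. Cry1 had 793 and 924 counts after NMDA and 828 and 774 in DMSO. The DMSO values lay within or below the NMDA range, and the change of 0.10 ± 0.10 did not pass (limma adjusted p = 0.482, 95% interval -0.14 to 0.33); it was -0.013 without NMDA replicate 2. Cry2 had 1128 and 819 counts after NMDA and 1671 and 1437 in DMSO. Both NMDA libraries were lower than both DMSO libraries, with NMDA replicate 2 the lowest. Cry2 fell by 0.69 ± 0.15 on the log2 scale (limma adjusted p = 0.00706). The call was lost without DMSO replicate 1, where the change was -0.58 and far fewer genes were called over the whole table. The change was -0.46 without NMDA replicate 2 and -0.92 without NMDA replicate 1, with the call kept in both.

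Arntl encodes BMAL1, the partner of CLOCK and the only single clock gene whose loss is known to stop rhythms in mice. It had 275 and 316 counts after NMDA and 425 and 424 in DMSO. Both NMDA libraries were lower, and the DMSO libraries were nearly equal. Arntl fell by 0.53 ± 0.12 (limma adjusted p = 0.00813). The change was -0.52 without DMSO replicate 1 and -0.53 without DMSO replicate 2. The call was lost in both fits, in which far fewer genes were called over the whole table.

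The REV-ERB genes encode heme-binding repressors. Nr1d1 had 2465 and 2297 counts after NMDA and 2646 and 2517 in DMSO. The NMDA libraries were slightly lower, and the change of -0.12 ± 0.08 did not pass (limma adjusted p = 0.287, 95% interval -0.31 to 0.07); with quantile normalisation it was 0.0077. Nr1d1 shares 1075 bases of its span with Thra, a thyroid hormone receptor gene with 10161 and 9223 counts after NMDA and 9712 and 9712 in DMSO, and without a stated strand setting reads in the shared part cannot be told apart. Nr1d2 had 1327 and 1628 counts after NMDA and 2336 and 2485 in DMSO. The groups were far apart, and Nr1d2 fell by 0.71 ± 0.11 (limma adjusted p = 0.00177), with changes between -0.86 and -0.57 and the call held under 13 other settings.

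DBP and NFIL3 act on the same D-box sequences in opposite directions. Dbp was the gene with the fewest reads, with 49.2 and 32.5 normalised counts after NMDA (56 and 31 reads) and 33.2 and 26.35 in DMSO (37 and 22 reads). The groups overlapped, and the change of 0.42 ± 0.30 did not pass (limma adjusted p = 0.288), with a 95% interval of -0.26 to 1.11 that spans both directions. It was 0.13 without NMDA replicate 1, 0.71 without NMDA replicate 2 and 0.26 without DMSO replicate 2. Dbp shares 741 bases of its span with Sphk2, a sphingosine kinase gene, which had 162 and 138 counts after NMDA and 143 and 120 in DMSO. Nfil3 had 579 and 514 counts after NMDA and 1069 and 944 in DMSO. Every NMDA library was lower than every DMSO library, and its log2 change of -0.88 ± 0.11 (limma adjusted p = 0.000899) was the largest fall of the 10 genes. The call held under 13 other settings, with changes between -0.97 and -0.79. Long non-coding RNA genes also overlap Per2, Cry2, Arntl and, among the genes described below, Ciart, Bhlhe40, Gsk3b, Cipc and Nampt, and Uts2 overlaps Per3, with 0 and 0 counts after NMDA and 0.90 and 0 in DMSO; the same limit on strand holds for these.

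**Figure D2:**
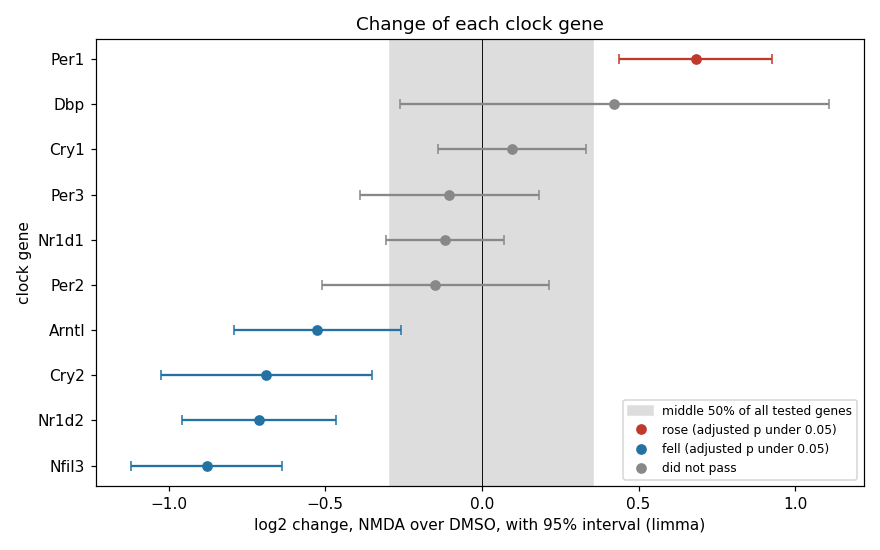
Log2 change of each clock gene, NMDA over DMSO (horizontal axis), with its 95% interval from limma; the grey band holds the middle 50% of all tested genes, from -0.29 to 0.35. Per1 at 0.68 lies above the band and Nfil3, Nr1d2, Cry2 and Arntl lie below it, between -0.88 and -0.53.

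To set close relatives among the 10 genes side by side without comparing their levels, the log2 ratio of a pair was taken within each library. For Per1 over Per2 it was 3.43 and 3.45 after NMDA and 2.59 and 2.62 in DMSO, a difference of 0.83 between the groups. For Cry1 over Cry2 it was -0.51 and 0.17 after NMDA and -1.01 and -0.89 in DMSO, a difference of 0.79. For Nr1d1 over Nr1d2 it was 0.89 and 0.50 after NMDA and 0.18 and 0.02 in DMSO, a difference of 0.60. In all 3 pairs the ratio was higher in both NMDA libraries than in both DMSO libraries, and the difference between group means was larger than the gap between replicates of either group. Each pair joins a gene that passed and a gene that did not, so the differences restate the changes given above. Groups did not overlap for 74.5% of all tested genes, and no such share was taken over other gene pairs. A two-sided exact permutation test gave p = 0.333 for each (0.333 after adjustment over the 3 pairs), the smallest that 2 libraries against 2 allow, so it could not pass a threshold of 0.05.

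**Figure D3:**
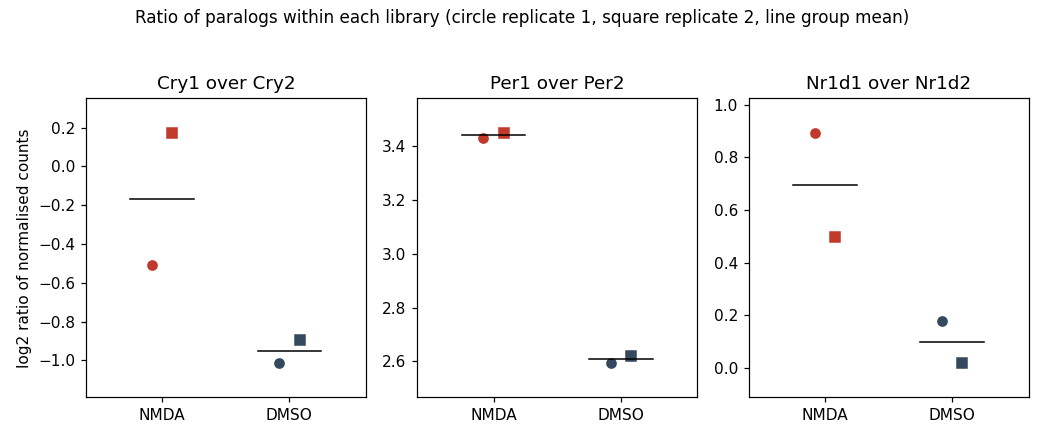
Log2 ratio of normalised read counts of 2 related clock genes within each library (vertical axis, which does not start at 0), for the NMDA and DMSO groups; points are libraries and lines are group means. Each of the 3 ratios stands higher in both NMDA libraries, which restates the changes of the single genes. The Per1 over Per2 ratio has the smallest spread, with 3.43 and 3.45 after NMDA and 2.59 and 2.62 in DMSO.

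Among 12 other transcription factors of the clock, 10 were tested, of which 1 rose, 2 fell and 7 missed the threshold (median log2 change -0.22, against -0.0055 for all tested genes). Over all tested genes 20.5% rose and 21.5% fell, so 3 of 10 called is below the 41.9% called in all. Ciart, listed under its older symbol Gm129 and encoding the CLOCK and BMAL1 repressor CHRONO, had 147 and 132 counts after NMDA and 303 and 239.5 in DMSO. Its NMDA libraries were the lower ones, and it fell by 0.95 ± 0.16 (limma adjusted p = 0.00251). Tef, an activator related to DBP, fell by 0.26 ± 0.08 (limma adjusted p = 0.0308), with 2369 and 2248 counts after NMDA and 2757 and 2753 in DMSO. Bhlhe40, an E-box repressor also called DEC1, rose by 0.33 ± 0.11 (limma adjusted p = 0.0346), with 940.2 and 1046 counts after NMDA and 728 and 849 in DMSO. The call of Tef was lost without NMDA replicate 2 (change -0.22), DMSO replicate 1 (-0.25) or DMSO replicate 2 (-0.26). That of Bhlhe40 was lost without NMDA replicate 2 (0.26), DMSO replicate 1 (0.22) or DMSO replicate 2 (0.45). Tef also lost its call with quantile normalisation (-0.13 and 0.195) and with DESeq2 (-0.25 and 0.0573), and Bhlhe40 with DESeq2 (change 0.34), just above the threshold. Without each of these 3 libraries limma gave fewer calls in this list and over all tested genes than the fit on all libraries. On all libraries edgeR gave 1 rise and DESeq2 0. The median was -0.14 without NMDA replicate 1.

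The kinases and ubiquitin ligases of the list set the stability of PER and CRY proteins. Of 15, 5 fell and the other 10 missed the threshold, with a median log2 change of -0.18 and 0 rises by limma (2 at an unadjusted p under 0.05), 1 by edgeR and 0 by DESeq2. Of all tested genes 21.5% fell and 41.9% were called in either direction, with a median of -0.0055. Btrc and Fbxw11, which encode the beta-TrCP adaptors that bind phosphorylated PER, fell by 0.71 ± 0.11 and 0.44 ± 0.09 (limma adjusted p = 0.00172 and 0.00476). Btrc had 1107 and 907 counts after NMDA and 1655 and 1624 in DMSO. Gsk3b, a kinase of several clock proteins, fell by 0.54 ± 0.09 and Csnk1d, casein kinase 1 delta, which phosphorylates PER, by 0.36 ± 0.08 (limma adjusted p = 0.00287 and 0.00923). All 4 were lower in both NMDA libraries than in both DMSO libraries. In the whole list this held for 10 of 15 genes, against 37.8% of all tested genes. Csnk1d shares 1292 bases of its span with Slc16a3, whose counts were 54.4 and 60.8 after NMDA and 31.4 and 39.5 in DMSO. Without DMSO replicate 1 the changes of Gsk3b, Fbxw11 and Csnk1d were -0.51, -0.41 and -0.36, and their calls were lost. Csnk1d also lost its call without DMSO replicate 2, where its change was -0.35. In both fits the list had fewer falls, as did all tested genes.

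Of 15 cofactors of the clock's activators and repressors, 8 fell and the other 7 missed the threshold, with a median log2 change of -0.28 and 0 rises by limma, edgeR and DESeq2 and 0 at an unadjusted p under 0.05. The share that fell over all tested genes was 21.5%, the share that rose 20.5% and the median -0.0055. Crebbp and Ep300, the acetyltransferases CBP and p300 that assist CLOCK and BMAL1, fell by 0.84 ± 0.08 and 0.50 ± 0.09 (limma adjusted p = 0.000698 and 0.00336). Crebbp had 1270.3 and 1282 counts after NMDA and 2349 and 2223 in DMSO. Cipc, listed under the older symbol 2310044G17Rik and encoding a repressor that binds CLOCK, had 754 and 751 counts after NMDA and 1198 and 1176 in DMSO and fell by 0.66 ± 0.08 (limma adjusted p = 0.00105). These 3 genes were lower in both NMDA libraries than in both DMSO libraries. In the whole list this held for 11 of 15 genes, against 37.8% of all tested genes. Ep300 lost its call without DMSO replicate 1, where its change was -0.41. Without either DMSO library the list had fewer falls, as did all tested genes.

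**Figure D4:**
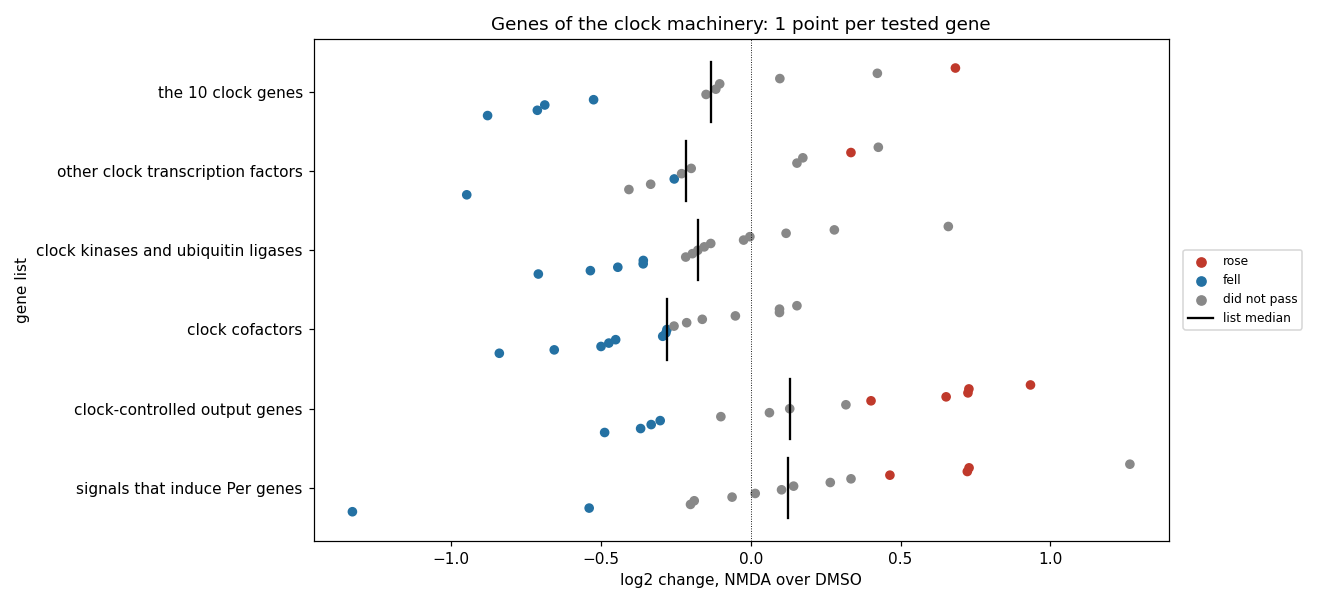
Log2 change of each tested gene, NMDA over DMSO (horizontal axis), in the 10 clock genes and 5 lists of clock-related genes; colour gives the limma call and black bars are list medians. The cofactors hold 8 falls and 0 rises, the kinases and ubiquitin ligases 5 and 0 and the output genes 5 rises and 4 falls. Among all tested genes 20.5% rose and 21.5% fell. With either DMSO library left out, calls were fewer in the cofactors, the kinases and ubiquitin ligases, the output genes and over all tested genes.

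Of 14 genes known to be controlled by the clock in other tissues, 13 were tested, of which 5 rose, 4 fell and 4 missed the threshold (median log2 change 0.13, against -0.0055 for all tested genes, of which 20.5% rose and 21.5% fell). Cdkn1a, the cell cycle inhibitor p21 and also a p53 target, rose by 0.72 ± 0.11 (limma adjusted p = 0.00181), with 2791 and 3321 counts after NMDA and 1714 and 1978 in DMSO. Tspan4, a tetraspanin gene, rose by 0.40 ± 0.10 (limma adjusted p = 0.0138); it shares 292 bases of its span with Chid1. Nampt, the rate-limiting enzyme of NAD salvage, fell by 0.33 ± 0.08 (limma adjusted p = 0.0108). Alas1, the first enzyme of heme synthesis, fell by 0.49 ± 0.12 (limma adjusted p = 0.0124), with 306 and 272 counts after NMDA and 426 and 386 in DMSO. Without DMSO replicate 1 the changes of Tspan4, Nampt and Alas1 were 0.35, -0.34 and -0.42. Without DMSO replicate 2 they were 0.46, -0.33 and -0.56. These genes lost their calls in both fits, in which the list and all tested genes had fewer rises and fewer falls. On all libraries edgeR gave 4 falls and DESeq2 3. Rises were also fewer in the list and over all tested genes without NMDA replicate 2, where the list median was -0.061. The list median was 0.0075, 0.25 and 0.36 without DMSO replicate 1, DMSO replicate 2 and NMDA replicate 1.

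The last list holds 16 genes of the signals known to act on Per genes, namely CREB family factors, their coactivators and kinases, SRF and neuropeptides of the master clock. Of 14 tested, 3 rose, 2 fell and 9 missed the threshold (median log2 change 0.12, and 0.012 without DMSO replicate 2). Among all tested genes 20.5% rose, 21.5% fell and the median was -0.0055, so 5 of 14 called is near the 41.9% called in all. Rps6ka5, which encodes the kinase MSK1 of CREB and histone H3, had 190 and 187 counts after NMDA and 509.9 and 442 in DMSO. The groups were far apart, and Rps6ka5 fell by 1.33 ± 0.12 (limma adjusted p = 0.000698). Crtc1, a CREB coactivator, fell by 0.54 ± 0.09 (limma adjusted p = 0.00245), with 1445 and 1291 counts after NMDA and 2036 and 1938 in DMSO. Srf, the serum response factor, had 572 and 584 counts after NMDA and 347 and 349.7 in DMSO and rose by 0.73 ± 0.10 (limma adjusted p = 0.00125). Atf1, a CREB family factor, had 283 and 305 counts after NMDA and 189 and 166 in DMSO and rose by 0.72 ± 0.13 (limma adjusted p = 0.00372). The calls of these 4 genes held without each library in turn.

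The genes whose pattern over the 4 libraries was most like that of Per1 were Ehd2, Ippk and Phactr2, at distances of 0.019, 0.029 and 0.036. The distance is Euclidean, between log2 values centred per gene, taken over 11987 genes whose mean reached 50. Ehd2, for example, had 252 and 252 counts after NMDA and 171 and 140.1 in DMSO. Nearest to Nfil3 were Gspt2, Herpud1 and Zkscan2, at distances of 0.027, 0.032 and 0.036. Herpud1 had 1949 and 1717 counts after NMDA and 3513 and 3090 in DMSO. The likeness is a description of 4 libraries.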

How the data were processed

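The authors deposited a signal per gene and library, named normalised read counts, and the submitters' processing notes name build mm9 and TopHat, Bowtie, HTSeq and DESeq without versions or roles; no source used here gives the annotation or strand setting. Within each library the deposited values were multiples of a single step (99.99% to 100% within 0.0051), so reads could be recovered: 20.1 M and 16.8 M for the NMDA libraries and 20.1 M and 15.0 M for the DMSO libraries (M, 1e+06). Of the table's symbols 19767 were current, 1974 older and 196 unmatched in mouse tables of assembly GRCm38.p6, used for names, overlaps and promoter sequences.

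Genes with a mean of at least 10 were tested with limma-trend 3.58.1 (R 4.3.3) on log2(value + 1), NMDA against DMSO, two-sided, with Benjamini-Hochberg adjustment at 0.05; edgeR 4.0.16 (quasi-likelihood, TMM) and DESeq2 1.42.0 on recovered reads were alternatives. The fit was checked on simulated data with a fixed spread that was not estimated from these libraries, so the check gives no error rate for them. Named genes were all 10 clock genes, in each other list the called genes of smallest p (at most 4), and the 3 genes most like Per1 and Nfil3; predicted gene models were left out of the last. A gene that this rule names is not reported here. The clock genes and all lists were chosen with earlier results of these data known. The deposited chromatin values carry no gene or position and were not used here.

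Replicates of a group differed beyond sampling noise (chi-square per gene 15.1 for NMDA and 4.47 for DMSO). Groups came from the sample titles.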

Additional observations from a re-analysis of the deposited data

How the results depend on the processing

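Across 13 other settings Per1, Nr1d2 and Nfil3 kept direction and call. Over the fits with 1 library left out Per2 ranged from -0.31 to 0.011 and Cry1 from -0.013 to 0.21. Reversed values, none past the threshold in either fit, were Nr1d1 at 0.0077 (quantile normalisation), Cry1 at -0.013 (without NMDA replicate 2) and Per2 at 0.011 (without DMSO replicate 1). Dbp had no value with a minimum mean of 50. Calls over all tested genes were fewest without DMSO replicate 1, then without DMSO replicate 2. With 1 library left out, the lone library of its group is assumed to vary like the others. Over these 4 settings the 10 clock genes had 2 to 4 falls and medians of -0.24 to -0.059; the other transcription factors 0 to 1 rises, 1 to 2 falls and medians of -0.23 to -0.14; kinases and ligases 0 to 1 rises, 1 to 7 falls and medians of -0.20 to -0.15; cofactors 2 to 9 falls; output genes 1 to 5 rises, 0 to 3 falls and medians of -0.061 to 0.36; signals medians of 0.012 to 0.14; and all tested genes 1069 to 3033 rises, 915 to 3334 falls and medians of -0.011 to -0.00033. 

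With no filter on low values the medians were -0.022 for other transcription factors and 0.011 for all genes, and output genes had 3 rises. With a minimum mean of 50 the medians were -0.022 for other transcription factors, 0.059 for signals and -0.026 for all genes. With quantile normalisation the medians were -0.24 for the 10 clock genes, -0.15 for other transcription factors, -0.14 for kinases and ligases, -0.21 for cofactors and -0.022 for all genes, with 1 fall of other transcription factors, 1 rise of kinases and ligases, 5 falls of cofactors and 3 rises of output genes. With the same total per library kinases and ligases had 1 rise and a median of -0.15, and the median of all genes was 0.022. By edgeR kinases and ligases had 1 rise, and by DESeq2 other transcription factors had 0 rises (1 at an unadjusted p under 0.05) and 1 fall and output genes 3 rises; the medians of all genes were 0.0054 and 0.0048. On recovered reads edgeR called 2905 rises and 2877 falls over all genes and DESeq2 2249 and 2315. The cause of these differences was not tested.

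The replicate numbers give no pairing in the labels (correlation of the differences between replicates 0.34 over 13888 genes, with 2 pairs). With a replicate block the 10 clock genes had the same 1 rise and 4 falls, kinases and ligases had 2 rises, and all tested genes 3685 rises and 3782 falls. The chromatin tables allow no statement on these genes, and Dbp, with 22 to 56 reads, has the widest interval.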
